A study of Mus musculus with 24 samples.

Results

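Integrins are the adhesion receptors with which leukocytes hold on to vessel walls, matrix and each other, and 10 of their subunits were followed across the spinal cord arrays of a mouse study of Th1- and Th17-driven experimental autoimmune encephalomyelitis (EAE). The members were Itgb2, Itgal, Itgam, Itgax, Itga4, Itgb1, Itgb7, Itgae, Itga5 and Itgav. They were chosen by their role and not by a measured value, though with earlier results of these data known. All 10 were found among the 17097 genes with a probe set of their own, and for each gene the probe set with the largest mean across the 24 arrays was used. Each array held RNA from the spinal cord of 1 mouse. The groups were naive wild-type mice, wild-type mice that received Th1 cells, wild-type mice that received Th17 cells and naive mice labelled Act1 ko, with 5 arrays each, and mice labelled Act1 ko that received Th17 cells, with 4 arrays. Act1, encoded by Traf3ip2, is the adaptor through which the IL-17 receptor signals. Recipients were given MOG35-55-specific cells 4 h after a sublethal irradiation of 500 rad, and naive mice were left untreated, so that transfer and irradiation cannot be told apart. The methods give female littermates of 8 to 12 weeks and collection 12 days after transfer. The labels place that collection at the onset of symptoms and the study's text at the peak of disease. The donor cells were expanded from lymph nodes and, by the methods, spleens of immunized mice under Th1 or Th17 polarizing conditions, and a sublethally irradiated host keeps part of its own leukocytes.

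An integrin is a pair of 1 α and 1 β chain, and both are needed for the receptor to reach the cell surface. The β2 chain (Itgb2, CD18) pairs with αL (Itgal, giving LFA-1), αM (Itgam, giving Mac-1) and αX (Itgax, giving CD11c/CD18), and these receptors are restricted to leukocytes. The α4 chain (Itga4) pairs with β1 (Itgb1) to form VLA-4, the receptor for VCAM-1 that is the target of natalizumab in multiple sclerosis, or with β7 (Itgb7) to form the gut homing receptor. The αE chain (Itgae, CD103) pairs with β7 and binds E-cadherin on epithelium, α5 (Itga5) pairs with β1 and binds fibronectin, and αV (Itgav) is made by many cell types, glia and neurons included.

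2 checks on the arrays come before the values. The Traf3ip2 probe set read 4.29 ± 0.20 in naive wild-type mice (SD, n = 5, log2 scale as all values here), 5.56 ± 0.24 in naive mice labelled Act1 ko (n = 5) and 5.69 ± 0.10 in Th17 recipients labelled Act1 ko (n = 4). It read 5.16 ± 0.12 in wild-type Th1 recipients and 5.38 ± 0.18 in wild-type Th17 recipients (n = 5 each). It was thus not lower under the knockout label, and since the allele is not described in the sources used here, it is not known whether the probe set lies in a deleted part, and the label was not checked by it. Among Th1 recipients, replicates 4 and 5 had scores of 55.0 and 55.9 on the first principal component, apart from the other 3 at 67.8 to 68.5. Naive mice and Th17 recipients labelled Act1 ko lay together between -49.1 and -46.4. Array medians ranged from 3.464 to 3.572, and a level near or below them is close to the background of the array. Fold changes over such levels are lower bounds and are written as "at least". This applies to Itgal, Itgax and Itgb7 in naive mice and in all mice labelled Act1 ko. It also applies to Itgam, at group means of 3.66 to 3.78 in these mice, and to any other gene whose naive level is that low. Itgae, at group means of 3.50 to 3.70 in these mice, was near the medians too. Itga5 lay below the medians in all groups. In whole tissue, a change in the number of cells of a type and a change in RNA per cell cannot be told apart.

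Itgam and Itgax, the members that differed between Th1 and Th17 recipients below, are neighbours on chromosome 7 of GRCm38.p6, at chr7:128062640-128118491 and chr7:128129526-128150657, and Itgal is on the same chromosome at chr7:127296139-127335137. The promoters of Itgam and Itgax are shown because these 2 neighbouring genes differed in opposite directions, and that of Itgb7 because it rose about equally in both kinds of recipients. RefSeq promoters, from 250 bases before to 50 after the start used for the promoter, matched 7 of the 10 members, without Itgal, Itgb2 and Itgae. For Itgax and Itgb7 that start is not the 5′ end of the gene, which is at chr7:128129526 and chr15:102233405. 3 short motifs were searched on both strands: GAGGAA, the core bound by PU.1, the myeloid and B cell regulator, ACCACA, the core bound by RUNX factors, and GGGCGG, the core bound by SP1. They do not overlap each other in these 3 promoters, and they are printed in capitals, with the complement in capitals where the match is on the other strand. The sequences are given 5′ to 3′ along the gene, at chr7:128062390-128062689 on the + strand for Itgam, chr7:128129300-128129599 on the + strand for Itgax and chr15:102231886-102232185 on the - strand for Itgb7.
Itgam: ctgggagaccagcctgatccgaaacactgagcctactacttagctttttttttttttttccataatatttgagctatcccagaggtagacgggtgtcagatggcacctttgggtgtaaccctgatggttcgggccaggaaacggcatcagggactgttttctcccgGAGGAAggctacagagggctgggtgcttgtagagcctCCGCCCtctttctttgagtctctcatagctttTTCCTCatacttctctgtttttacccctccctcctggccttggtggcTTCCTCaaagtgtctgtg
Itgax: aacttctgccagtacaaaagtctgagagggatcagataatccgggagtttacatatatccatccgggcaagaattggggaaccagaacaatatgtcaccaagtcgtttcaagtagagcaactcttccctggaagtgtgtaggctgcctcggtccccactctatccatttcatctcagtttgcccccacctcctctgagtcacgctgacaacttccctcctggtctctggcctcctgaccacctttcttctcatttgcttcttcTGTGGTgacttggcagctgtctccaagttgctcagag
Itgb7: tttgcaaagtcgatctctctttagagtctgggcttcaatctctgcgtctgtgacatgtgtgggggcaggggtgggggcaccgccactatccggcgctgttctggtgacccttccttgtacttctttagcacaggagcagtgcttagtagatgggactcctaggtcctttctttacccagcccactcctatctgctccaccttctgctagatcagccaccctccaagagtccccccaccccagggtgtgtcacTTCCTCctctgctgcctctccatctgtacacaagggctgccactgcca
The Itgam window held 3 PU.1 cores and 1 SP1 core, the Itgax window 1 RUNX core and no other, and the Itgb7 window 1 PU.1 core. Of all 32851 RefSeq promoters of this length, 28.3% held the PU.1 core, 16.8% the RUNX core and 35.7% the SP1 core, so such matches are common and describe letters, not binding.

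In the spinal cords of wild-type mice, the common β chain Itgb2 and its partners Itgal, Itgam and Itgax all rose after transfer of either cell type. Itgb2 read 4.28, 4.57, 4.13, 4.25 and 4.31 in the 5 naive mice. It read 10.42, 10.58, 10.66, 10.34 and 10.50 in the 5 Th17 recipients and 10.77, 10.82, 10.75, 10.63 and 10.34 in the 5 Th1 recipients. All recipients lay far above all naive mice, and recipients of the 2 cell types overlapped. Over naive mice, Itgb2 rose 73-fold with Th17 cells (a log2 difference of 6.19 with a standard error of 0.10, limma adjusted p = 1.94e-25) and 81.8-fold with Th1 cells (6.35 with a standard error of 0.10, limma adjusted p = 1.64e-25). Its partner Itgal, the α chain of LFA-1 on T cells and other leukocytes, ranged from 2.70 to 3.30 in naive mice, 8.01 to 8.46 in Th17 recipients and 8.17 to 8.71 in Th1 recipients. Its rise was at least 37.7-fold with Th17 cells and at least 43.1-fold with Th1 cells (limma adjusted p = 4.71e-23 and 2.14e-23). Itgam, found on monocytes, macrophages, microglia and neutrophils, rose at least 24.2-fold and at least 16.9-fold (limma adjusted p = 4.26e-20 and 6.31e-19). Itgax, found on dendritic cells and on activated macrophages and microglia, rose at least 9.73-fold in Th17 recipients and at least 27.1-fold in Th1 recipients (limma adjusted p = 6.84e-17 and 1.96e-20).

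Over all 10 members, 9 passed as higher after Th17 transfer than in untreated mice and none as lower, where 18.0% of all genes tested passed as higher and 25.5% as lower. In Th1 recipients 10 of 10 passed as higher, against 16.7% of all genes higher and 24.1% lower. The median difference of the members was 3.04 in Th17 recipients and 3.10 in Th1 recipients, where that of all genes was -0.05 and -0.06. The ranges of naive mice and Th17 recipients did not overlap for 8 members, against 35.0% of all genes, and those of naive mice and Th1 recipients for 7, against 33.6%. Both comparisons share the naive mice.

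**Figure D1:**
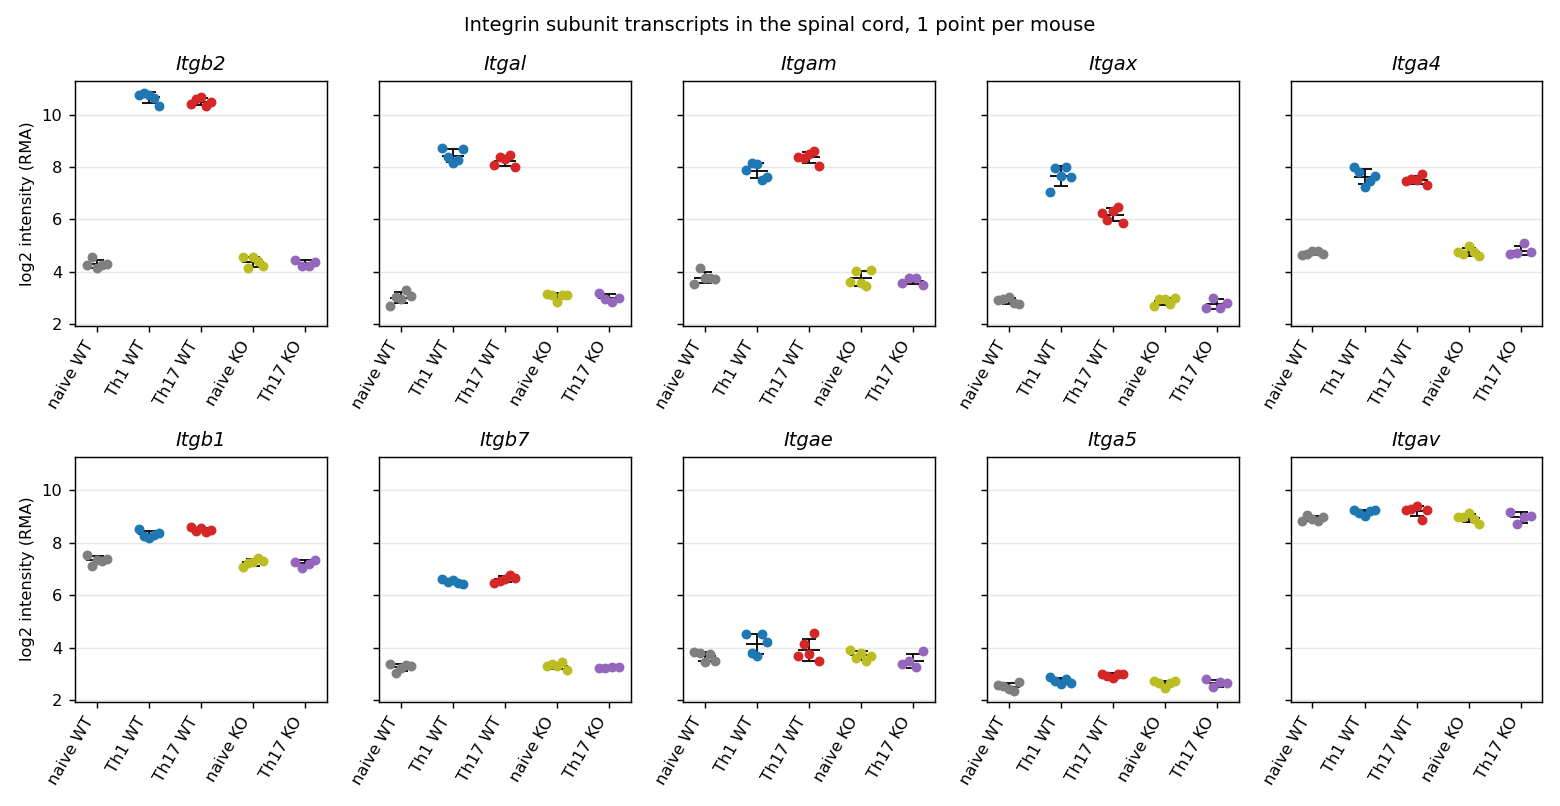
Log2 intensity of the 10 integrin subunits in the 24 spinal cord arrays, 1 panel per gene and 1 point per mouse, with the mean and SD of each group in black. Wild-type Th1 and Th17 recipients lie above all other mice for Itgb2, Itgal, Itgam, Itgax, Itga4, Itgb1 and Itgb7, and mice labelled Act1 ko lie at the naive level with and without Th17 cells.

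The α4 and β7 chains rose together with the β2 group, and β1 rose less. Itga4 read 4.65, 4.70, 4.78, 4.78 and 4.68 in naive mice and between 7.32 and 7.73 in Th17 recipients, a rise of 6.91-fold (2.79 as log2 difference, standard error 0.11, limma adjusted p = 2.11e-17). It read between 7.24 and 8.01 in Th1 recipients, a rise of 7.55-fold (2.92, standard error 0.11, limma adjusted p = 8.59e-18). Itgb7 went from 3.01 to 3.36 in naive mice to 6.45, 6.55, 6.61, 6.77 and 6.66 in Th17 recipients and 6.60, 6.50, 6.58, 6.47 and 6.44 in Th1 recipients. The recipients were close to each other, with an SD of 0.12 and 0.07. Itgb7 rose at least 10.3-fold with Th17 cells (limma adjusted p = 6.54e-23) and at least 9.72-fold with Th1 cells (limma adjusted p = 1.26e-22). Itgb1, which neural, glial and vascular cells also make, already read 7.33 ± 0.15 in naive mice (SD, n = 5). It reached 8.50 ± 0.07 in Th17 recipients and 8.32 ± 0.13 in Th1 recipients (n = 5 each), with no overlap with naive mice. That was a rise of 2.25-fold (95% interval of the log2 difference 0.99 to 1.34, limma adjusted p = 9.39e-12) and 1.98-fold (0.81 to 1.16, limma adjusted p = 3.27e-10).

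The α chains outside these pairs changed little, and Itgae and Itga5 lay near the background of the array in naive mice. Itgae read 3.84, 3.78, 3.44, 3.76 and 3.49 in naive mice, 3.68, 4.14, 3.75, 4.56 and 3.50 in Th17 recipients and 4.50, 3.78, 3.68, 4.51 and 4.20 in Th1 recipients. The groups overlapped, with 1 Th17 recipient and 3 Th1 recipients at 4.20 or above. The difference from naive mice was 0.26 in Th17 recipients (95% interval -0.10 to 0.62, limma adjusted p = 0.259) and 0.47 in Th1 recipients (0.11 to 0.83, limma adjusted p = 0.0339). The latter was 0.37 to 0.58 with an adjusted p between 0.0104 and 0.109 when each array was left out in turn, and -0.02 after centring on ribosomal protein genes. Its partner β7 had risen several fold in the same mice. Itga5 passed in both comparisons, by 0.43 in Th17 recipients and 0.22 in Th1 recipients (limma adjusted p = 5.6e-05 and 0.0276), at levels near the background of the array and with a change to -0.27 for Th1 recipients after centring on ribosomal protein genes and to -0.03 after centring on array medians. Itgav, bright in all mice, read 8.93 ± 0.09 in naive mice (SD, n = 5), 9.21 ± 0.20 in Th17 recipients and 9.18 ± 0.09 in Th1 recipients. Its differences of 0.28 and 0.26 passed (limma adjusted p = 0.0188 and 0.0361) but turned to -0.14 and -0.23 after centring on ribosomal protein genes. That centring moved the median of all genes by -0.43 and -0.49, and centring on array medians moved it by -0.26 and -0.25.

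Itgb2, Itgam, Itgax, Itgb7, Itgae and Itga5 have 1 probe set each, so no other could be compared. The probe sets of the other members did not all follow the one used. Of the 5 probe sets of Itgav, the other 4 did not pass in Th17 or Th1 recipients, the brightest of them with a difference of 0.11 and -0.10. Itgb1 has 5, of which a second one rose by 1.30 and 1.09 (limma adjusted p = 1.25e-07 and 2.55e-06) and the other 3 did not pass, with differences from -0.05 to 0.10. The 4 dimmer probe sets of Itga4 gave -0.02 to 0.68 in Th17 recipients, and 3 of them passed as higher. The second one of Itgal rose by 1.82 in Th17 recipients and 2.41 in Th1 recipients.

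**Figure D2:**
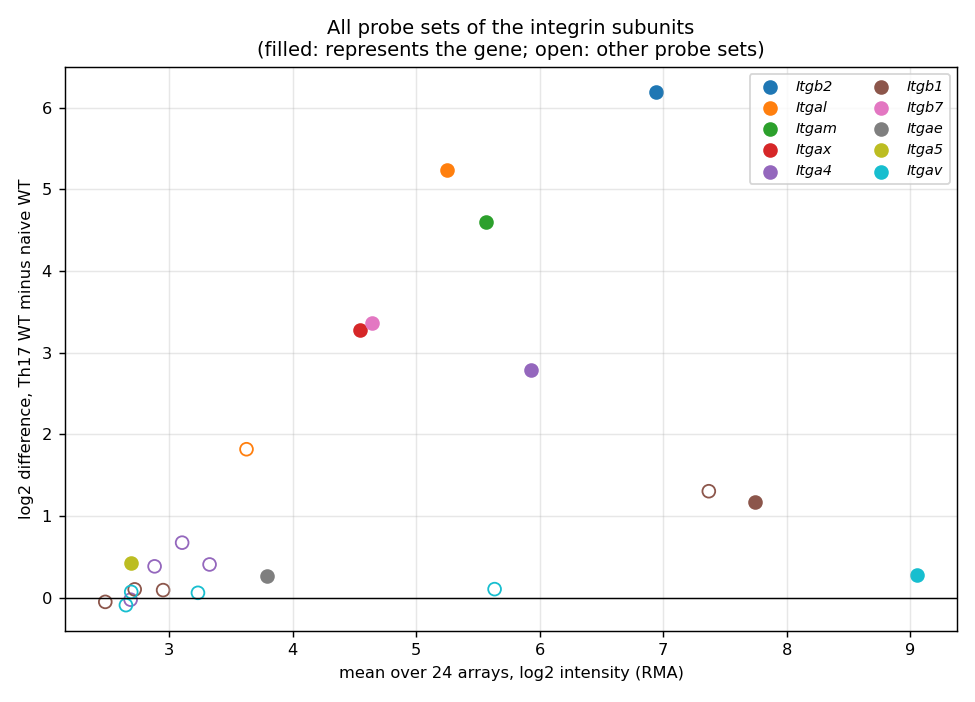
Difference between Th17 recipients and naive wild-type mice (vertical axis, log2) against the mean over the 24 arrays (horizontal axis, log2 intensity) for every probe set of the 10 subunits, with 1 colour per gene. Filled points are the probe sets used in the text and open points the others, which mostly lie near a difference of 0, apart from those of Itgal at 1.82, Itgb1 at 1.30 and some dim ones of Itga4.

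Between Th17 and Th1 recipients, 1 member passed as lower, Itgax, and 1 as higher, Itgam, where 1.09% of all genes passed as lower and 1.91% as higher. Itgax read 7.05, 7.96, 7.67, 8.01 and 7.61 in the 5 Th1 recipients. It read 6.26, 5.98, 6.32, 6.47 and 5.86 in the 5 Th17 recipients and 2.77 to 3.03 in naive mice. Each Th17 recipient lay below each Th1 recipient and above each naive mouse. Itgax was 2.79-fold lower after Th17 than after Th1 transfer (-1.48 as log2 difference, standard error 0.14, limma adjusted p = 7.81e-08, exact two-sided permutation p = 0.00794, the smallest that 5 against 5 allows). The difference was -1.38 without Th1 recipients 4 and 5 (limma adjusted p = 3.7e-06) and lay between -1.63 and -1.40 when each array was left out in turn. The sample titles hold a letter and number code, read here as row and column of a position, which the labels do not state. Th1 arrays shared no column of this code with other groups, so Th1 transfer and column cannot be told apart. Within the 3 rows that held both kinds of recipients, with 1 array of each kind per row, Itgax differed by -1.41 to -1.06.

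Itgam went the other way. It read 7.87, 8.15, 8.12, 7.52 and 7.64 in Th1 recipients and 8.39, 8.36, 8.51, 8.60 and 8.04 in Th17 recipients, so that 1 Th17 recipient lay within the range of the Th1 recipients and the other 4 above it. Itgam was 1.43-fold higher with Th17 than with Th1 cells (0.52 as log2 difference, standard error 0.14, limma adjusted p = 0.038, exact two-sided permutation p = 0.0238). This call was lost without Th1 recipients 4 and 5 (0.335, limma adjusted p = 0.473), and over the arrays left out in turn the difference lay between 0.44 and 0.60 with an adjusted p between 0.0164 and 0.144. It was lost without any 1 of Th1 recipients 1, 4 and 5 or of Th17 recipients 1, 2, 3 and 4. Within the 3 shared rows Itgam differed by 0.27 to 0.87, but with the row as a block the call was lost (0.45, limma adjusted p = 0.108). In all, 12 of 28 alternatives kept it, among them those of probe set choice, which could not change its difference.

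The shared partner Itgb2 differed by -0.17 between Th17 and Th1 recipients (95% interval -0.38 to 0.05) and Itgal by -0.19 (-0.43 to 0.04), and neither passed (limma adjusted p = 0.624 and 0.587). The second, dimmer probe set of Itgal differed by -0.59 (standard error 0.16, limma adjusted p = 0.054 over 28898 probe sets). With the mean of its probe sets, Itgal passed as lower in Th17 recipients. Set against Itgb2 in the same array, a comparison chosen after the data were seen, Itgax was 2.49-fold lower (limma adjusted p = 1.35e-07) and Itgam 1.61-fold higher (limma adjusted p = 0.00685) in Th17 recipients, and Itgal differed by -0.03 (limma adjusted p = 0.912). The 5 genes that most leukocytes make, Ptprc, Cd53, Laptm5, Coro1a and Cd52, differed by -0.25 to 0.18 between the recipients, and none passed, also at an unadjusted p. Relative to their mean in each array, Itgax was 2.69-fold lower (limma adjusted p = 5.91e-08) and Itgam 1.49-fold higher (limma adjusted p = 0.0194), where 0.503% of all genes passed as lower and 1.99% as higher. Itga4, Itgb7, Itgae and Itgav differed by -0.21 to 0.09 with limma adjusted p of 0.791 to 0.979, and their intervals allow differences from -0.57 to 0.24. Itgb1 and Itga5 differed by 0.18 and 0.21 (95% intervals 0.00 to 0.36 and 0.05 to 0.37, limma adjusted p = 0.399 and 0.204).

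**Figure D3:**
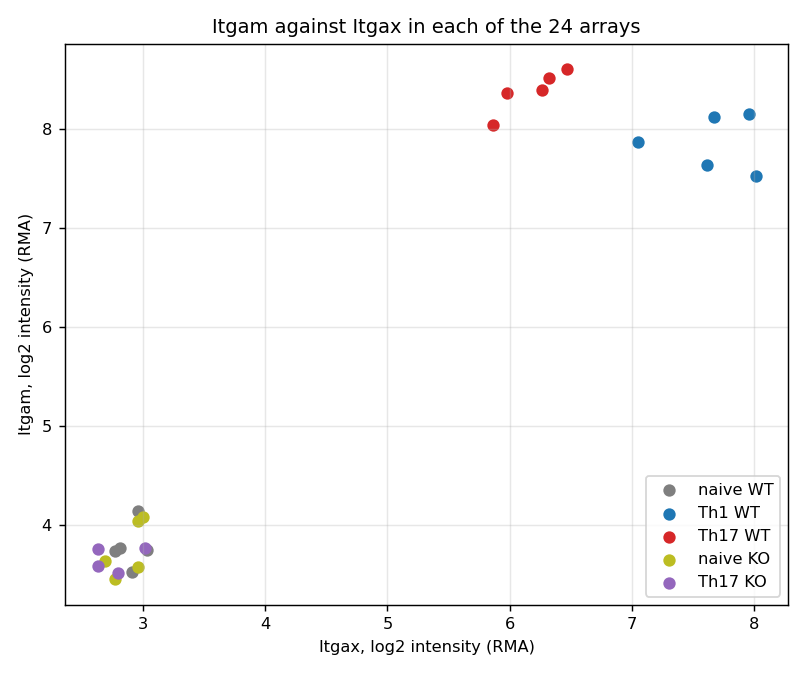
Itgam (vertical axis) against Itgax (horizontal axis), both as log2 intensity, with 1 point per array and 1 colour per group. Th1 recipients lie to the right, at 7.05 to 8.01 for Itgax, and Th17 recipients to their left at 5.86 to 6.47 and mostly above, while the other 3 groups share the lower left corner.

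Markers of the cells that carry these receptors moved in part with them. All 11 measured monocyte and macrophage markers and all 11 T cell markers were higher in recipients of either cell type than in naive mice. Of all genes, 18.0% passed as higher in Th17 recipients and 16.7% in Th1 recipients. For Th17 against Th1 recipients, 1.91% of all genes passed as higher and 1.09% as lower. Neutrophil markers passed as higher in Th17 than in Th1 recipients for 5 of 9, with array means of the list of 5.05 to 5.55 against 3.82 to 4.68. S100a9, a chain of the neutrophil protein calprotectin, differed most in this list. It read 8.52 ± 0.62 in Th17 recipients and 4.57 ± 1.21 in Th1 recipients (SD, n = 5 each). Cxcr2 and Camp passed near or below the array medians, at 3.44 and 3.54 in Th17 recipients. Mmp9, Csf3r, Ltf and Ngp did not pass. Ltf and Ngp lay below the medians in both kinds of recipients, with Ngp at -0.24 between them. T cell markers passed as higher in Th17 recipients for 4 of 11. Of the monocyte and macrophage markers 4 of 11 passed as higher in Th17 recipients and 0 as lower. Array means overlapped at 8.19 to 8.68 against 8.01 to 8.55. The 4 were Plac8, F13a1, Ccr2 and Cd14, at 1.34, 1.07, 0.735 and 0.58 (limma adjusted p = 0.000102, 8.61e-05, 0.00506 and 0.0225). None of the 5 dendritic cell markers passed between the recipients, with array means of 3.31 to 3.44 in Th17 and 3.26 to 3.55 in Th1 recipients. Xcr1, Cd209a and Zbtb46 stayed between 2.51 and 3.41 in all group means, near or below the array medians. The other 2 genes of the list passed against naive mice in both kinds of recipients, Batf3 as higher by at least 0.85 and 0.92 and Flt3 as lower, at -0.89 and -0.84. Mrc1, the macrophage mannose receptor, differed by -1.14 between Th17 and Th1 recipients and did not pass (limma adjusted p = 0.0608). None of the 8 homeostatic microglia markers passed between the recipients. With so few of all genes passing there, no call among 5 or 8 genes is near the share of all genes. Against naive mice, 4 of the 8 microglia markers passed as higher and 3 as lower in either kind of recipients. Of all genes, 25.5% passed as lower in Th17 recipients and 24.1% in Th1 recipients. The part of these cells in the differences of Itgax and Itgam was not tested.

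In mice labelled Act1 ko, no member was found changed by the transfer of Th17 cells. Itgb2 read 4.46, 4.23, 4.22 and 4.38 in the 4 recipients and 4.58, 4.14, 4.58, 4.40 and 4.23 in the 5 naive mice of the same label. Itgal read 3.20, 2.96, 2.86 and 3.00 in these recipients, against 3.14, 3.11, 2.86, 3.10 and 3.13. Itgam ranged from 3.51 to 3.77 against 3.45 to 4.08, and Itgax from 2.63 to 3.02 against 2.69 to 3.00. The groups overlapped for all 10 members, and of all genes only 1.5% did not overlap. No member passed the limma test, none had an unadjusted p under 0.05, and none passed the exact Mann-Whitney test, which called 0 of all genes. The differences ranged from -0.20 for Itgae to 0.05 for Itga4, and the 95% interval for Itgb2 was -0.29 to 0.16. Among all genes 0% passed as higher and 0% as lower, with 1070 at an unadjusted p under 0.05. The pan-leukocyte genes had array means of 5.41 to 5.54 in these recipients and 5.45 to 5.76 in the naive mice of that label, against 9.71 to 9.96 in wild-type Th17 recipients.

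Against wild-type Th17 recipients, the Th17 recipients labelled Act1 ko were lower for 8 members, where 17.6% of all genes passed as lower and 24.6% as higher. Itgb2 was 72.3-fold lower, Itgal at least 38-fold, Itgam at least 26.5-fold, Itgax at least 10.6-fold and Itgb7 at least 10.3-fold lower (limma adjusted p at most 1.24e-16). Itga4 was 6.49-fold lower, Itgb1 2.44-fold and Itga5 1.23-fold lower (limma adjusted p = 1.86e-16, 4.41e-12 and 0.0046). Itga5 turned to 0.08 after centring on ribosomal protein genes. Itgae and Itgav did not pass, at -0.43 and -0.24 (limma adjusted p = 0.0697 and 0.0673). In the test of the difference itself, the Th17 response under the knockout label minus that in wild-type mice, the same 8 members passed as lower, against 13.8% of all genes lower and 18.2% higher. No member passed between the naive mice of both labels (differences -0.08 to 0.13, limma adjusted p = 0.796 to 0.995), where 0.164% of all genes were higher and 0.421% lower under the knockout label.

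**Figure D4:**
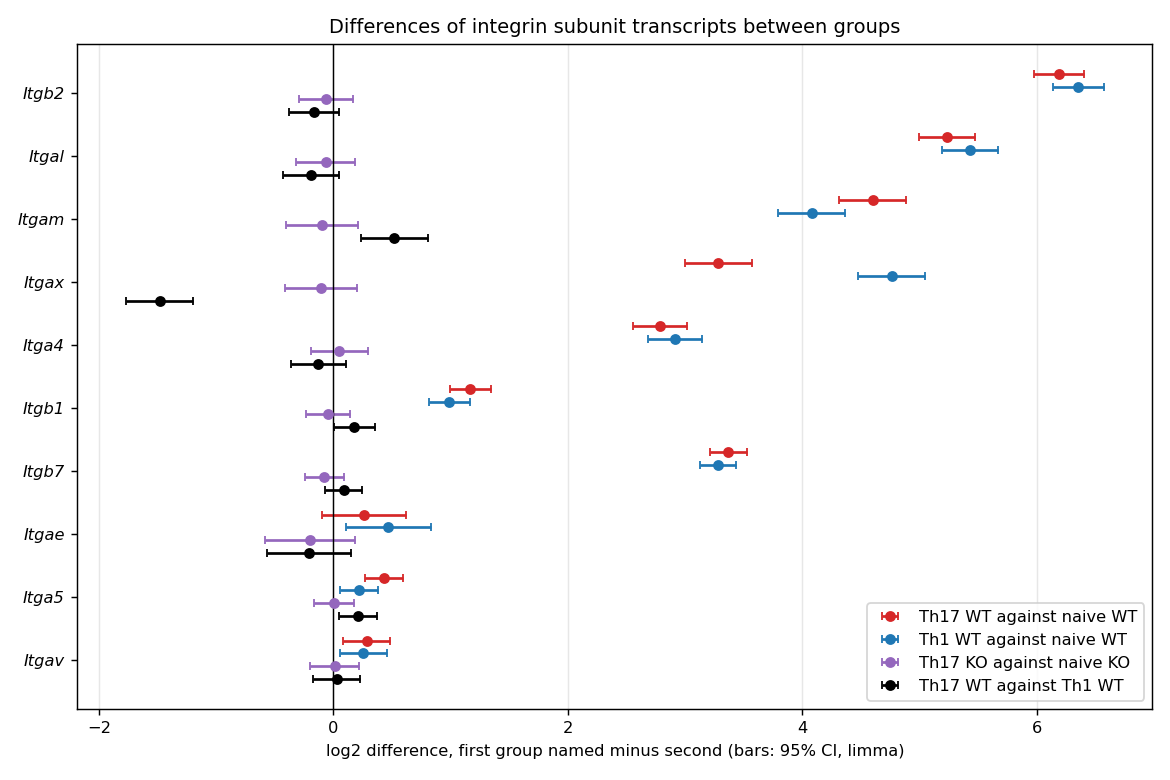
Log2 differences of the 10 members (horizontal axis) with 95% intervals from limma, in 4 comparisons marked by colour. Intervals of Th17 recipients labelled Act1 ko against naive mice of that label include 0 for each member. Between Th17 and Th1 recipients those of Itgax, Itgam, Itga5 and Itgb1 exclude 0, and Itgax and Itgam, at -1.48 and 0.52, passed after adjustment.

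The ligands of these receptors moved unevenly. Of 16 measured ligand genes, 7 passed as higher and 3 as lower in Th17 recipients, where 18.0% and 25.5% of all genes did, and 7 as higher and 1 as lower in Th1 recipients, where 16.7% and 24.1% did. The lower counts are thus no more than the share of all genes. Icam1, the ligand of LFA-1 and Mac-1, rose by at least 5.12 and 4.86 (limma adjusted p = 1.12e-22 and 3.51e-22), from 3.06 ± 0.14 in naive mice to 8.18 ± 0.15 in Th17 recipients and 7.91 ± 0.25 in Th1 recipients (SD, n = 5 each). Vcam1, the ligand of α4β1, rose by 2.36 and 2.38 (limma adjusted p = 4.31e-14 and 3.73e-14). Fn1, fibronectin, rose by 5.25 and 4.76, and Tgfb1, whose latent form αV integrins bind, by at least 3.34 and 3.74. Madcam1, the gut ligand of α4β7, differed by 0.10 and 0.09 and was near the background in all groups, at 2.67 to 2.85. Cdh1, the E-cadherin that αEβ7 binds, rose by at least 0.75 and 0.70 (limma adjusted p = 7.91e-05 and 0.000205). Jam2, a junction protein that binds α4β1, fell by 0.62 and 0.55 on the log2 scale (limma adjusted p = 6.76e-05 and 0.000337). Between Th17 and Th1 recipients F11r, a junction protein that binds LFA-1, and Vtn, vitronectin, the αV ligand, passed as lower in Th17 recipients, at -0.45 and -0.59 (limma adjusted p = 0.00921 and 0.0219).

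Of 18 measured genes that activate integrins or link them to actin, 11 passed as higher and 4 as lower in both kinds of recipients. Of all genes, 18.0% passed as higher and 25.5% as lower in Th17 recipients, and 16.7% and 24.1% in Th1 recipients. The count of 4 lower is thus no more than the share of all genes. None of the 18 differed between Th17 and Th1 recipients by limma (2 at an unadjusted p under 0.05). That is near the share of all genes, 1.91% higher and 1.09% lower. Fermt3, the kindlin of blood cells, rose by at least 3.89 and 3.98 (limma adjusted p = 3.14e-19 and 2.07e-19). Fyb, an adaptor of T cells and myeloid cells, rose by at least 3.35 in both, and Skap2 by 1.60 and 1.41. The talin of blood cells, Tln1, rose by 1.47 and 1.38. The members that went against the list were Tln2, the talin of brain and muscle, which fell by 0.96 and 0.78, Fermt2, the kindlin of tissue cells, which fell by 0.51 and 0.61, the small GTPase Rap1a, which fell by 0.45 and 0.52, and Rasgrp2, an exchange factor for Rap1, which fell by 0.34 and 0.57 on the log2 scale. In Th17 recipients labelled Act1 ko none of the ligand or activation genes passed against naive mice of that label, where 0% of all genes passed.

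The other integrin subunits measured, 13 of them, moved less than the leukocyte members, with a median of 0.03 in Th17 recipients and -0.03 in Th1 recipients. In Th17 recipients 4 passed as higher and 2 as lower, and in Th1 recipients 2 and 2, and apart from the 4 these counts are below the shares of all genes given above. Itgb5, a partner of αV, rose by 1.52 and 1.93 (limma adjusted p = 1.02e-12 and 5.69e-15) and was lower in Th17 than in Th1 recipients, at -0.42 (limma adjusted p = 0.0164). Itga1, a collagen receptor chain, rose by at least 0.85 and 0.66 (limma adjusted p = 2.01e-06 and 7.94e-05). Itgb4, the β chain of a laminin receptor, fell by 1.39 and 1.34 on the log2 scale (limma adjusted p = 5.64e-07 and 1.19e-06). Itga3, a laminin receptor chain, fell by 0.42 and 0.57. Itga7, another laminin receptor chain, was the one gene of this list that passed as higher in Th17 than in Th1 recipients (0.48, limma adjusted p = 0.0282).

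The genes most like each member were searched among 8543 genes with a mean at or above the median gene, by Pearson's r over the 24 arrays. For the strongly raised members the coefficient mostly reflects the split between wild-type recipients and all other mice, and the arrays share 1 normalization. Nearest to Itgax were Trem2, a lipid receptor of microglia and macrophages, H2-Eb1, an MHC class II chain, and Cyp4v3 (r = 0.987, 0.986 and 0.985). All 3 had a higher mean in Th1 than in Th17 recipients, with H2-Eb1 at 10.81 and 9.73. Nearest to Itgam were Ms4a6d, Clec4d and Pdpn (r = 0.997, 0.997 and 0.996), each with a higher mean in Th17 recipients, as 9.29 against 8.73 for Ms4a6d. The neighbours of Itgax and Itgam were picked by r over these same arrays, so their direction between recipients is partly set by the search. Nearest to Itgal were Cxcl9, Cd52 and Cd74, nearest to Itgb2 Chil3, Ccl6 and Iigp1, and nearest to Itgb7 Cxcl10, AB124611 and Ifi47 (all r = 0.998). For Itga4 they were Uba7, Trpt1 and Nlrc5 (r = 0.994) and for Itgb1 Slfn8, Rnf213 and Timp1 (r = 0.982 to 0.983). The weakly moving members had less close neighbours, Efhd2, Zfp384 and Slc66a1 for Itgav (r = 0.833 to 0.867), Dgka, Galnt7 and Smad3 for Itga5 (0.819 to 0.863) and Plcl2, Fbxw4 and Rnpepl1 for Itgae (0.744 to 0.752). Between the 7 strongly raised members themselves r was 0.91 to 1.0 over the 24 arrays, and -0.43 to 0.38 once the group means were subtracted.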

How the data were processed

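The authors deposited log2 values made by RMA, a method that subtracts background, equalizes the distributions of arrays and combines the probes of a set, for 45118 probe sets on 24 arrays. Neither its version nor the arrays normalized together are given in the sources used here, and a change common to all genes of a group would be hidden. Of the probe sets, 28898 with a single symbol in the platform annotation were used, which gave 17097 genes. The 551 with several symbols and the 15669 without one were left out. Groups came from the sample labels. Arrays of a group correlated at 0.985 to 0.996, and no array repeated another. The number of arrays limits the precision.

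From these values, limma 3.58.1 in R 4.3.3 was fitted to all 24 arrays without a block (lmFit, eBayes, two-sided), with Benjamini-Hochberg adjustment over all genes and calls at an adjusted p under 0.05. A further fit took each array's values minus its mean over 5 pan-leukocyte genes, and was not used for Th17 recipients labelled Act1 ko, whose pan-leukocyte genes lay at the naive level. Single members were also tested by exact permutation. The script was tested on simulated data. Each array is a separate mouse by the labels and methods. Members, gene lists and motifs were chosen with earlier results of these data known. Named genes were the members, those with the smallest adjusted p or against the direction in the lists of integrins, ligands and activators, the defining markers and the 3 genes most like each member. Madcam1, Cdh1, Rasgrp2, S100a9, Cxcr2, Camp, Mmp9, Csf3r, Ltf, Ngp, Plac8, F13a1, Ccr2, Cd14, Mrc1, Batf3 and Flt3 were named after their values were seen. Replicate numbers did not pair samples, with correlations of deviations of -0.29 to 0.44 within a number and -0.39 to 0.46 between numbers. Alternatives covered probe set choice, scaling, filters, variance model, blocks, arrays left out, and the methods' t-test and Mann-Whitney test.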

Additional observations from a re-analysis of the deposited data

Results flagged for a closer look

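The Th17 response under the knockout label differed from that in wild-type mice, by the interaction term in limma, for 8 members. The difference was -6.25 for Itgb2 (adjusted p = 1.91e-21), -5.30 for Itgal (3.98e-19), -4.70 for Itgam (2.53e-16) and -3.39 for Itgax (2.61e-13), all on the log2 scale. It was -3.45 for Itgb7 (limma adjusted p = 4.35e-19), -2.74 for Itga4 (2.51e-13), -1.21 for Itgb1 (1.29e-08) and -0.42 for Itga5 (0.00495). For Itgal, Itgam, Itgax and Itgb7, near the background in naive mice and in all mice labelled Act1 ko, these sizes are lower bounds.

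In 3 of 50 groups of values, 1 mouse stood far from the other mice of its group by Dixon's test, which flags about 1 in 20 groups by chance. Itgal read 2.86 in naive mouse 3 labelled Act1 ko, below the next value of 3.10. Itga4 read 5.09 in Th17 recipient 3 labelled Act1 ko, above the next value of 4.74. Itgav read 8.87 in wild-type Th17 recipient 4, below the next value of 9.24.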

How the results depend on the processing

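Of 2115 values of single members under alternatives, 2021 kept their side of the threshold and, where called, their direction. Another 76 lost the call, 9 gained one and 9 turned from a call to the other sign. The values that turned were those of Itga5 in Th1 recipients against naive mice (-0.27 with ribosomal and -0.03 with median centring) and in Th17 recipients labelled Act1 ko against wild-type ones (0.081, ribosomal), Itgae in Th1 recipients (-0.018, ribosomal), and Itgav in Th17 recipients (-0.14, ribosomal) and Th1 recipients (-0.23 ribosomal, -0.019 with the mean of all probe sets, -0.10 with the most variable one). Relative to Ptprc alone instead of the 5 pan-leukocyte genes, Itgam turned to 0.30 in Th17 recipients labelled Act1 ko against wild-type ones, and 1 member in place of 3 was lower. Pan-leukocyte genes were at the naive level in these recipients, so no result above rests on this comparison. In 51 of the 2021 cases neither value was called and the sign differed, with a value of at most 0.19 in size under the alternative. Against naive mice, Itgax, Itgam, Itgal, Itgb2, Itga4 and Itgb7 kept their calls under all 53 alternatives each. Probe set choice could not change the differences of Itgax, Itgam, Itgb2 and Itgb7, which have 1 probe set each.

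With a 2-fold minimum, 6 members were higher after Th1 transfer than without it. Centring on ribosomal protein genes made 2 members lower there. Between Th17 and Th1 recipients, the number of members higher (Itgam) fell to 0 with a 2-fold minimum, median centring, quantile normalization, the exact Mann-Whitney test, the methods' t-test, only the groups compared in the fit, the position row as a block, and without Th1 recipients 4 and 5 with or without that block. It was 0 to 1 over the arrays left out in turn, and 0 to 1 relative to pan-leukocyte genes, where it was also 0 relative to Ptprc alone. Itgax kept its call in 27 of 28 alternatives, though with 1 probe set the choice of probe set could not change its difference. The exception was the exact Mann-Whitney test, which gave 0 members lower (adjusted p = 0.238) and called 0 of all genes. The mean of all probe sets gave 2 members lower, with Itgal added. With the arrays left out in turn, 7 to 10 members were higher in Th1 recipients and 8 to 9 in Th17 recipients. The replicate number as a block left 1 member higher and 1 lower between Th17 and Th1 recipients, and 9 and 10 members higher against naive mice. A block by position column could not be fitted to Th1 comparisons, since Th1 arrays share no column with others. The cause of these changes was not tested.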
